A study of Mus musculus with 27 samples.

Results

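Genes with much higher expression in iPSCs than in both MEFs and pre-iPSCs were taken by a rule. In each of the 2 expression tables, which hold replicates 1 and 2, FPKM (RNA fragments scaled to transcript length and library size) plus 1 in iPSCs had to be at least 4 times that in pre-iPSCs and at least 4 times that in MEFs. Of 20156 gene rows, 261 met this in the table of replicate 1, 241 in that of replicate 2 and 154 in both. The 19 left out by name are core pluripotency and germ cell genes such as Nanog, Esrrb, Utf1 and Ddx4, together with all symbols that begin with Dppa, Zfp or Klf. The remaining 135 genes are described here. Their expression in iPSCs against the other cells chose them, so those levels are given as a description and were not tested.

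The study followed the reprogramming of mouse embryonic fibroblasts (MEFs) through partly reprogrammed cells (pre-iPSCs) to induced pluripotent stem cells (iPSCs). MEFs came from e13.5 embryos that carried an Oct4-GFP transgene and a Rosa26 allele, bred from (CBA/CaJ × C57BL/6J) males and 129Sv/Jae females, and were kept for at most 3 passages. Pre-iPSCs and iPSCs were made from such MEFs with the Yamanaka factors carried by retrovirus and were cultured for 6 passages. Both were expanded on inactivated MEF feeder cells in serum medium with LIF, and 2 clones of pre-iPSCs with their iPSCs were used. RNA, histone H3, H3K4me3 and H3K27me3 were each measured in 2 libraries per cell type, and H3K9me3 in 1. The clone behind each library is not given in the sources used here, and MEF chromatin was digested with another amount and time of micrococcal nuclease than that of the other cells, so digestion and cell type cannot be told apart in any comparison of chromatin with MEFs.

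In pluripotent cells, H3K4me3 marks promoters that are active or ready for use, and H3K27me3, set by the Polycomb complex PRC2, marks silent developmental genes. Many genes of germ cells are silenced by DNA methylation in somatic cells, and embryonic stem cells are known to transcribe some of them. The piRNA pathway, a small RNA defence against transposons, belongs to that group.

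The labelled cell types were checked with marker genes. Pou5f1 was listed at 0 and 0.50 FPKM in the MEF replicates, at 378 and 3184 in pre-iPSCs and at 586 and 397 in iPSCs. Sox2 read 0.124 and 0.128, then 272 and 171, then 65.7 and 116 FPKM. Both are among the Yamanaka factors given to the cells, and FPKM per gene does not separate the transgenes from the endogenous genes. The paper describes pre-iPSCs as lacking expression of endogenous pluripotency markers. Of the other pluripotency markers, Nanog, Zfp42 and Esrrb stayed below 1 FPKM in pre-iPSCs and reached 49.5 to 73.6 FPKM in iPSCs. Utf1 and Dppa5a did not stay below 1 FPKM there. Utf1 read 23.2 and 1.67 FPKM in pre-iPSCs and 544 and 220 in iPSCs. Dppa5a read 1.70 and 5.01, then 725 and 842. Some other pluripotency genes were already high in pre-iPSCs, such as Tdgf1 at 228 and 333 FPKM, with 258 and 488 in iPSCs. The summed level of 9 fibroblast markers was 7655 and 9459 FPKM in MEFs, then 1136 and 848 in pre-iPSCs and finally 419 and 545 in iPSCs, so fibroblast RNA, which feeder cells would also give, was present in all of them. Vim gave most of the sums in pre-iPSCs (845 and 754 FPKM) and in iPSCs (215 and 308). Of the 9 markers only Vim was lower in both iPSC than in both pre-iPSC libraries. Col1a1, for example, read 93.7 and 27.7 FPKM in pre-iPSCs and 74.7 and 70.6 in iPSCs. Summed markers of trophoblast reached at most 1.96 FPKM and those of primitive endoderm at most 3.66. In bulk RNA, more cells of a type and more RNA per cell cannot be told apart.

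The 135 genes went from near silence to moderate levels. Their median was 0.0104 and 0.0362 FPKM in MEFs, then 0.180 and 0.10 in pre-iPSCs and finally 12.1 and 10.6 in iPSCs. In all, 22 of them were listed at 0 in all 4 MEF and pre-iPSC libraries, and 51 at 0 in both MEF libraries. At the other end, 23 had at least 1 FPKM in both pre-iPSC libraries and 11 in both MEF libraries, and these entered because they were higher still in iPSCs. The members just inside the threshold were Prph, Aire and 1700013H16Rik, whose smaller ratio of the tables was 4.00 to 4.01, and the genes just outside were Rasgrp4, Wdr86 and Tmem8 at 3.93 to 3.95. The iPSC replicates differed by over 2-fold for 20 members, or 14.8%, against 10.2% of the 7953 genes with at least 3 FPKM in both iPSC libraries. The X chromosome carried 13 members, or 9.63% of them against 4.19% of all genes, and chromosome 7 carried 23, or 17.0% against 9.33%.

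**Figure D1:**
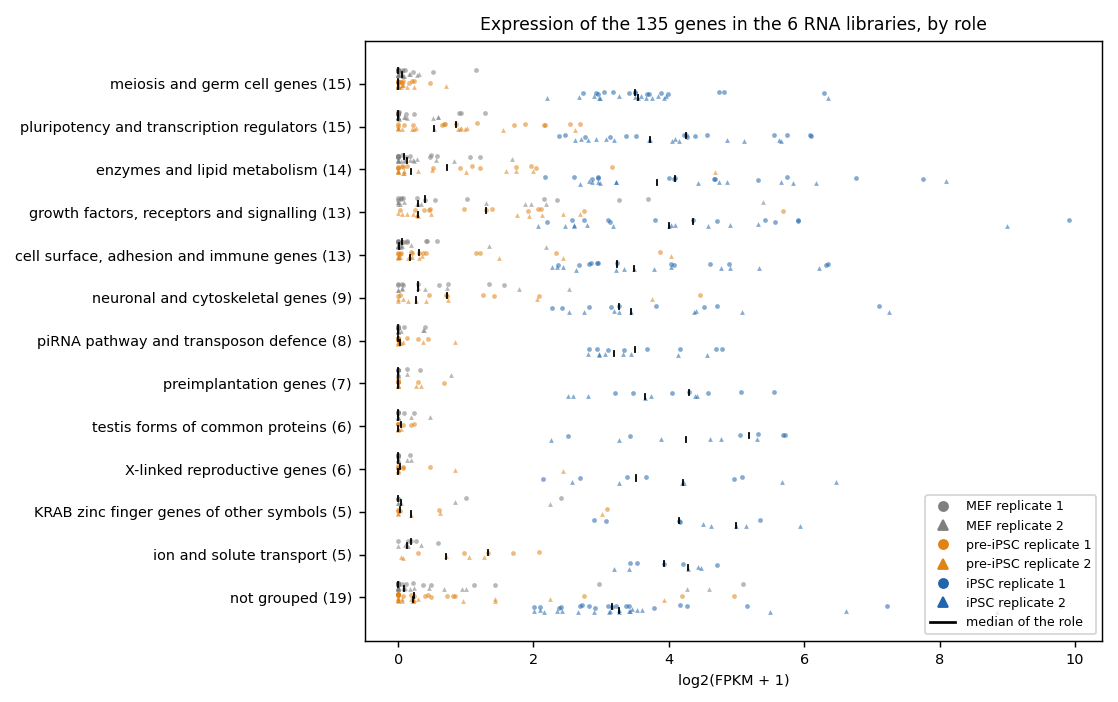
Expression of the 135 genes as log2(FPKM + 1) on the x axis, grouped by role on the y axis with the number of genes. Each point is 1 gene in 1 library (circles replicate 1, triangles replicate 2) and black ticks are medians. Medians of every role lie near 0 in MEFs, and iPSC points lie to the right because the rule asked for that.

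The members with the highest levels in iPSCs had varied roles. Mdk, a heparin-binding growth factor, read 11.9 and 40.9 FPKM in MEFs, then 50.8 and 4.43 in pre-iPSCs and finally 962 and 511 in iPSCs. Chchd10, a protein of the mitochondrial intermembrane space, read 6.82 and 18.2, then 30.0 and 14.3, then 884 and 458 FPKM. Upp1, uridine phosphorylase, read 1.32 and 0.475, then 3.12 and 24.7, then 216 and 273 FPKM. Mdk and Chchd10 were already transcribed in both earlier cell types, and Upp1 mainly in pre-iPSCs. Mdk and Upp1 differed widely between the pre-iPSC replicates. Bex1, an X-linked gene first known from brain, read 1.53 and 2.46 FPKM in MEFs, then 21.1 and 12.4 in pre-iPSCs and finally 136 and 152 in iPSCs. Rbpms2, an RNA-binding protein, was the member with the highest level in MEF replicate 1, at 33.3 FPKM, with 23.1 in replicate 2, 17.3 and 3.74 in pre-iPSCs, and lastly 148 and 97.3 in iPSCs. Pla2g1b, a secreted phospholipase best known from pancreas, stood at the other extreme. It was listed at 0 in all 4 MEF and pre-iPSC libraries and read 108 and 71.1 FPKM in iPSCs, the largest ratio of the set by the rule.

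Germ cell genes were among the largest groups. The 15 genes of meiosis and germ cells had a median of 0 FPKM in both pre-iPSC libraries and 10.3 and 10.7 in iPSCs. Stra8, which germ cells need to enter meiosis, was at 0 in both MEF libraries, 0.120 and 0 in pre-iPSCs, and reached 77.1 and 80.7 FPKM in iPSCs. Sohlh2, a germ cell transcription factor, was at 0 in all 4 earlier libraries and read 25.7 and 11 in iPSCs. Genes of the synaptonemal complex and its axis were among them. Syce1 reached 11.8 and 6.46 FPKM, Syce3 (listed as 1700007E06Rik) 8.04 and 8.56, and Hormad1 6.58 and 12.5. The recombinase Dmc1 reached 7.21 and 6.90 FPKM. The transcription factor Dmrt1 reached 10.3 and 14.6 FPKM.

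Of the 8 members of the piRNA pathway and transposon defence, Tex19.1 read 25 and 22.6 FPKM, Gtsf1l 26.7 and 16.5, Fkbp6 17.0 and 9.01 and Pnldc1, which trims the ends of piRNAs, 11.7 and 5.98 in iPSCs. None of the 8 passed 0.783 FPKM in any MEF or pre-iPSC library. Testis forms of proteins that have a common somatic form made a further group of 6. Cyct, the testis cytochrome c, read 51.4 and 38.4 FPKM in iPSCs, Rbmxl2, of the hnRNP G family, 50.7 and 23.3, Tuba3a, an alpha-tubulin, 39.0 and 26.3, and Rpl10l, a ribosomal protein retrogene, 32.3 and 13.8. Cyct, Rbmxl2 and Rpl10l were listed at 0 in all 4 earlier libraries. The remaining pair were Psma8, a testis proteasome subunit, and the testis chaperone Clgn, at 9.74 and 8.64 and at 4.69 and 3.78 FPKM.

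Genes of the preimplantation embryo and X-linked reproductive genes were low or at 0 in the earlier cells, at most 0.787 FPKM except for Trap1a. Zscan4c, Zscan4d and Zscan4f, which mark a state like the cleavage embryo, were at 0 in all 4 earlier libraries and read 18.6 and 5.99, 10.1 and 5.02, and 32.7 and 11.5 FPKM in iPSCs. They are near-identical copies, so the split of their reads among them is uncertain, and so is that of Xlr3a and Xlr5a. Triml1 read 46.1 and 12.4 FPKM and its neighbour Triml2 22.9 and 19.9. Ooep, of the maternal complex of the oocyte, read 15.6 and 20.4. Each Zscan4 gene and Triml1 was over 2-fold higher in iPSC replicate 1 than in replicate 2. The order was the opposite for Trap1a, a tumour rejection antigen on the X, which read 0.385 and 4.4 FPKM in pre-iPSCs and 32.7 and 87.4 in iPSCs, and for Fmr1nb at 30.3 and 50.1. Of the 5 KRAB zinc finger genes that carry other symbols, all on chromosome 4, Gm13242 read 6.45 and 34.1 FPKM, Gm13247 7.38 and 23.7 and Gm13051 16.9 and 30.7 in iPSCs. All 5 were higher in replicate 2, and they too belong to a cluster of similar copies.

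Among the 15 pluripotency and transcription regulators, Lin28a, which blocks maturation of let-7 microRNAs, was at 0 in MEFs, then 1.24 and 0 in pre-iPSCs and finally 66.6 and 48.6 FPKM in iPSCs. Foxh1, the partner of Smad proteins in Nodal signalling, read 67.4 and 33.4 FPKM, Cbx7, a Polycomb reader of H3K27me3, 52.7 and 49.5, and Tcf15, a basic helix-loop-helix factor, 45.8 and 28.0. The X-linked Ras gene Eras read 18.1 and 16.8 FPKM and the Akt co-activator Tcl1 10.5 and 8.13. The 14 enzyme and lipid genes held both Gldc and Amt, proteins of the glycine cleavage system, at 24.6 and 25.8 and at 24.4 and 28.0 FPKM in iPSCs. Apoc1, an apolipoprotein, read 38.9 and 55.9, and B3gnt7, a glycosyltransferase, 52.5 and 49.6. Of the 13 surface and immune genes, Nlrp1a, an inflammasome sensor, read 80.5 and 73.3 FPKM, Gm7325 (also known as Mymx) 79.3 and 28.9, the tight junction protein Cldn4 23.4 and 39.1 and the adhesion molecule Pecam1 15.9 and 12.7.

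Of the 13 growth factor, receptor and signalling genes, Gab1, an adaptor of receptor tyrosine kinases, read 58.9 and 29.1 FPKM in iPSCs, and Baiap2l1, an actin regulator, 46.5 and 38.9. The imprinted gene Phlda2 read 59.3 and 16.1 and the X-linked MAP kinase phosphatase Dusp9 42.0 and 22.9. The 5 transport genes included Atp1b2, a subunit of the sodium pump, at 25.3 and 21.1 FPKM and the potassium channel Kcnk5 at 17.5 and 18.6. The 9 neuronal and cytoskeletal genes held the intermediate filament genes Ina at 21.9 and 19.6, Prph at 8.58 and 9.87 and Nefh at 7.84 and 5.71. The 19 genes of no assigned role had medians of 7.94 and 8.57 FPKM in iPSCs.

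Members were next compared between pre-iPSCs and MEFs, which asks how many had begun to move in the intermediate cells. The rule used the values of these libraries and kept both groups low, and 39 of the 135 would have passed the filter of a mean of 0.5 FPKM without their iPSC libraries. The values are therefore a description, and nothing is read from the counts. By limma on log2(FPKM + 1) over 12401 genes, 10 members passed the threshold on the higher side in pre-iPSCs and 1 on the lower (Benjamini-Hochberg threshold 0.05, difference of 1 or more on the log2 scale), where 7.39% and 9% of all genes did. With a pseudocount of 0.1 FPKM these were 22 and 2. The 10 were Nlrp1a, Bex1, B3gnt7, Cldn4, Tcf15, Mreg, Cbx7, Apoc1, Gldc and Pecam1. Nlrp1a read 0.486 and 3.53 FPKM in MEFs and 13.6 and 15.3 in pre-iPSCs. Bex1 read 1.53 and 2.46 FPKM, then 21.1 and 12.4. Cldn4 read 0.347 and 0.0446 FPKM, then 4.06 and 4.4. In each of these genes both pre-iPSC libraries lay above both MEF libraries and below both iPSC libraries. Rbpms2 went the other way, with 33.3 and 23.1 FPKM in MEFs and 17.3 and 3.74 in pre-iPSCs. Without pre-iPSC replicate 1, 1 member passed on the higher side and 1 on the lower, and without pre-iPSC replicate 2 or iPSC replicate 2, 6 and 0 each. In both pre-iPSC libraries 42 members, or 31.1%, lay above both MEF libraries and 15, or 11.1%, below, where 19.8% and 21.4% of all genes did.

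Lists of related genes set the members among the rest of their pathways. They were compared between iPSCs and pre-iPSCs with limma, where 3.91% of 12401 genes were higher and 4.71% lower and the median log2 change was -0.09. Genes that met the rule had to be higher, and so did many others that passed the filter only through iPSCs. The counts of the germ cell and embryo lists are therefore a description and are not read against these shares. In a check of this comparison, 200 genes were given an artificial change on the log2 scale. Limma found 0 of them at a change of 1 or 2, 95 at 3 and 184 at 5. Few or 0 calls in a list therefore do not show that its genes were unchanged. Of 17 tested genes of germline defence and the piRNA pathway, 14 were higher and 0 lower. These include 7 members and 3 genes left out by name (Mael, Dazl and Ddx4) that met the rule. Of the 7 that did not meet it, 4 were higher, namely Mov10l1, Nanos3, Piwil2 and Tex15, and 0 of these 4 would have passed the filter from MEFs and pre-iPSCs alone. Mov10l1, for example, was at 0 in all 4 earlier libraries and read 2.86 and 2.00 FPKM in iPSCs. The list also holds Rpl10l, described above as a ribosomal protein retrogene. Of 26 tested meiosis and germ cell genes 22 were higher and 0 lower (10 members and 12 of 16 others), and 1 of those 12 would have passed the filter from the earlier cells alone. Sycp3, of the synaptonemal complex, read at most 0.145 FPKM in the earlier libraries and 3.10 and 10.2 in iPSCs, and Stag3, a cohesin subunit of meiosis, at most 0.516 in the former and at least 4.44 in the latter. Of 12 preimplantation genes 9 were higher (4 members and 5 of 8 others), and of 15 genes in the list of X-linked reproductive and cancer-testis genes 9 (7 members, of which Pramef12 lies on chromosome 4, and 2 of 8 others), and 0 of those 5 and 0 of those 2 would have passed it from the earlier cells alone. Without iPSC replicate 1 or 2, the number called was 9 and 6 for the piRNA list, 11 and 7 for the meiosis list and 4 and 4 for the preimplantation list, and for the X-linked and cancer-testis list it was 3 without iPSC replicate 2 and 14 without MEF replicate 1 or 2.

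The pluripotency network had 22 of 40 genes higher and 2 lower (Tdh and Klf4, the latter also a Yamanaka factor given to the cells). Of the 22, 3 are members and 10 were left out by name after meeting the rule, and of the 27 that did not meet it 9 were higher, 8 of which would have passed the filter without iPSCs. In the whole list 10 and 9 genes were called without iPSC replicate 1 or 2. Epithelial junction genes were divided, with 10 of 39 higher and 6 lower. The rule required the 2 members among them to be higher. Of the 37 that did not meet it 8 were higher and 6 lower, and 6 of those 8 higher genes would have passed the filter without iPSCs. The members there were Cldn4 and Cldn6, whereas Krt19 fell by 5.26 on the log2 scale (SE 0.44, limma adjusted p = 0.00158). Without iPSC replicate 1 or 2 the junction list had 2 and 1 calls, and without pre-iPSC replicate 2 it had 9. Of 26 surface antigens of pluripotent cells 3 were higher (Pecam1 is the member) and 3 lower, with 1 and 0 called without iPSC replicate 1 or 2 and 11 and 12 without MEF replicate 1 or 2. Trophoblast and primitive endoderm markers had 0 calls of 10, and 1 without MEF replicate 1, MEF replicate 2 or pre-iPSC replicate 1. Of 28 fibroblast and feeder markers 0 were higher and 1, S100a4, was lower, with 9 called without MEF replicate 1 or 2, 3 without pre-iPSC replicate 1 and 0 without iPSC replicate 1 or 2.

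The promoters of the 135 genes were then examined within 500 bp on either side of the transcription start site (TSS), in the mm9 genome. CpG content sets how promoters are marked in stem cells, since CpG-rich ones tend to carry H3K4me3. A promoter was called high in CpG if any 500-bp window of it had over 55% GC and a CpG observed over expected ratio above 0.75, low if no window passed 0.48, and intermediate otherwise. Members were high in 47 cases, intermediate in 50 and low in 38, or 34.8%, 37.0% and 28.1%, against 49.3%, 17.9% and 32.8% of all promoters. Intermediate promoters were held by 6 of 6 X-linked reproductive genes, 6 of 8 piRNA genes and 9 of 15 meiosis genes, whereas all 5 KRAB genes and 5 of 7 preimplantation genes were low. With the 300 bp from 250 before to 50 after the TSS in place of the wider region, 31.9% of members and 26.8% of all promoters were intermediate, and 19.3% and 32.3% were high, so the excess of the intermediate class rests on the region used.

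The 200 bases before the TSS are shown, with CpG dinucleotides in capitals, for 3 members of different classes whose H3K4me3 values are given further on. The class belongs to the whole region and cannot be read from these bases alone. They are written 5′ to 3′ on the strand of the gene, from mm9. Camk2b (chr11:5965752-5965951, minus strand) is of the high class and has 35 CpGs here, Stra8 (chr6:34870760-34870959, plus strand) is intermediate with 5, and low by the 300-bp region, and Hpn (chr7:31900310-31900509, minus strand) is low by both with 8, in a sequence richer in GC than that of Stra8.
Camk2b: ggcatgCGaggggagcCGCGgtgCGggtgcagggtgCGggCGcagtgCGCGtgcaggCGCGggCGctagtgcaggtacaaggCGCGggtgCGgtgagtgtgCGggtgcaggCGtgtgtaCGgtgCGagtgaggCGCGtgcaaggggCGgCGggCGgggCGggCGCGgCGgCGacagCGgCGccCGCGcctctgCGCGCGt
Stra8: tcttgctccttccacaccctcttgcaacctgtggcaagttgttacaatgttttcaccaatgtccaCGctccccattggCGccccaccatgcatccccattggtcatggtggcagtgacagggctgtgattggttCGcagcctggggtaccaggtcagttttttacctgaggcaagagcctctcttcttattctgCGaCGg
Hpn: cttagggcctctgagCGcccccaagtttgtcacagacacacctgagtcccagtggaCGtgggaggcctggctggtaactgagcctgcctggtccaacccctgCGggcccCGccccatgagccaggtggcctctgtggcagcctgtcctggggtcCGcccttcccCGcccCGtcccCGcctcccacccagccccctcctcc

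Short motifs were counted on both strands in the 300 bp. The E-box CACGTG, which is its own reverse complement, was in 15 members, or 11.1%, against 8.06% of all promoters. The octamer ATGCAAAT, the letters that Oct4 binds, was in 6, or 4.44% against 1.70%. The letters TCAAGGTCA, which Esrrb binds, were in 1 (0.741% against 0.318%) and the E2F letters GGCGGGAA in 4 (2.96% against 3%). The CRE letters TGACGTCA were in 1 (0.741% against 2.55%). The TATA box TATAAA was in 16 (11.9% against 12.7%) and the GC box GGGCGG in 70 (51.9% against 49.1%). E-boxes were in 3 of 8 piRNA members (Fkbp6, Pnldc1 and Rnf17) and 3 of 15 meiosis members. The octamer was in Atp1b2, Mageb16, Mef2b, Pnma5, Sfrp2 and Tspan13. A match of letters is a description of the sequence only.
The 200 bases before the TSS are shown for 3 germ cell members with the E-box in capitals, Fkbp6 (chr5:135825862-135826061, minus strand) with 2, Rnf17 (chr14:57021334-57021533, plus strand) with 1 and Hormad1 (chr3:95363399-95363598, plus strand) with 2.
Fkbp6: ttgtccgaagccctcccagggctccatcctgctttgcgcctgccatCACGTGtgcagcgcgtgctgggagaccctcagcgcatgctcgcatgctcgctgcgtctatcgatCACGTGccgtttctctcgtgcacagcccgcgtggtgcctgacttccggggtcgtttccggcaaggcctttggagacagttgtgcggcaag
Rnf17: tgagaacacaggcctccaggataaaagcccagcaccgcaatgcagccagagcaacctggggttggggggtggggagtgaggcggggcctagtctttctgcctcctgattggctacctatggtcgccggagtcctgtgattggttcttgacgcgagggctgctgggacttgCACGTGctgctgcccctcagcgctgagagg
Hormad1: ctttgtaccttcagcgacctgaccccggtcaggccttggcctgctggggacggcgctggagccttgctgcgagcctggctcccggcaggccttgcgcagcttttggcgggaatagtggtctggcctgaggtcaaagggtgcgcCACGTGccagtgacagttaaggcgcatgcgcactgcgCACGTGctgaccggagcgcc

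Marks at promoters were not used by the rule. Reads of called nucleosomes were counted at their centres and are given as CPM (counts scaled to all promoter reads of the library by TMM), in replicates 1 and 2. The calls of a library held 12007350 to 13146349 reads for H3K4me3, 13224775 to 15222040 for H3K27me3 and 67362868 to 108211816 for H3. The H3 library of pre-iPSC replicate 1 stood apart, with a median of 1.08 RPKM at member promoters against 0.216 to 0.464 in the other 5 H3 libraries.

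Member promoters had more H3K4me3 in iPSCs than in MEFs. Their median H3K4me3 was 19.5 and 23.5 in MEFs, then 33.2 and 36.3 in pre-iPSCs and finally 47.8 and 48.2 in iPSCs, while that of all promoters was at most 52.6 and at least 49.95 in every library. So members lay below the typical promoter in MEFs and near it in iPSCs. Both iPSC libraries lay above both MEF libraries at 78 of the 131 members with reads, or 59.5%, against 27.1% of all promoters, and below at 6, or 4.58% against 21.4%. Pre-iPSCs lay above MEFs at 51 (38.9% against 24.4%) and iPSCs above pre-iPSCs at 42 (32.1% against 17.5%). In 16 members the libraries were higher at both steps in this sense, against 3.64% of all promoters. These comparisons share libraries and are not independent of each other.

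**Figure D2:**
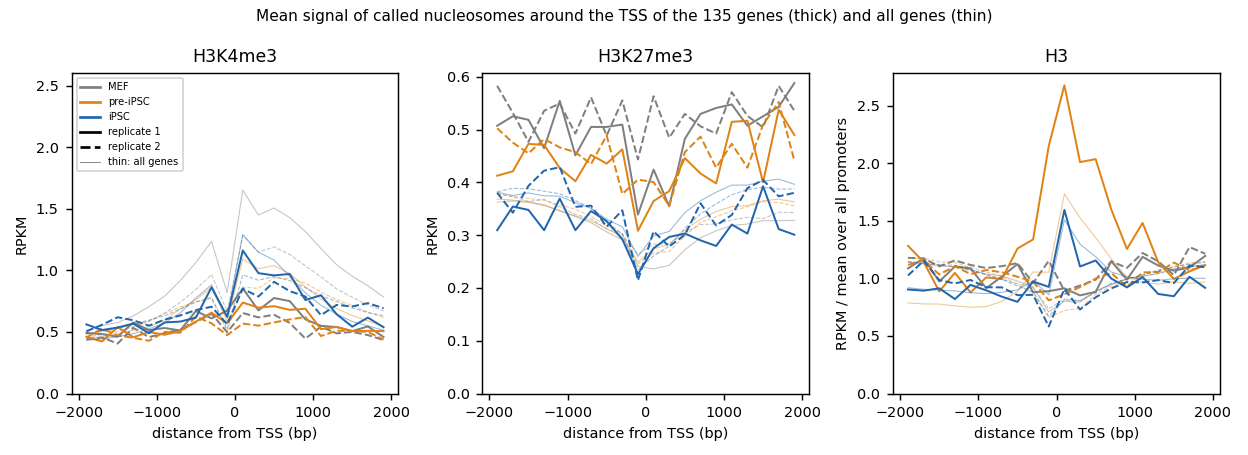
Mean signal of called nucleosomes in 200-bp bins within 2000 bp of the TSS, for the 135 genes (thick lines) and all genes (thin lines), in RPKM for H3K4me3 and H3K27me3 and relative to the mean over all genes for H3. Line style is the replicate and colour the cell type. Within 300 bp of the TSS, mean H3K4me3 of the members was 0.693 and 0.586 RPKM in MEFs and 0.934 and 0.723 in iPSCs, and mean H3K27me3 0.410 and 0.502 in MEFs and 0.265 and 0.253 in iPSCs. The tall H3 curve is replicate 1 of pre-iPSCs.

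By edgeR at an adjusted p below 0.05, 18 of the 135 members had higher H3K4me3 in iPSCs than in MEFs and 0 had lower, against 5.05% of 14878 promoters higher and 1.18% lower. Of the members 88 had enough reads for the test, and without that filter the count was 18 of 131, with 3.62% of all promoters higher. The median log2 change was then 0.79 over those 131 members and -0.02 over all promoters. For pre-iPSCs against MEFs 1 member was higher and 0 lower, where 1.65% and 0.336% of all promoters were. It was Kirrel2 (1.5 ± 0.43, edgeR adjusted p = 0.0329), which was not called without either MEF or either pre-iPSC replicate. For iPSCs against pre-iPSCs edgeR called 0 promoters of any gene (0%), with 1091 at an unadjusted p below 0.05 (276 by DESeq2, which also called 0), and the median over the 131 members, with no filter, was 0.32 against -0.01 over all promoters. The count for iPSCs against MEFs rested on most of the libraries. It was 1 without MEF replicate 1, 5 without MEF replicate 2, 2 without iPSC replicate 1 and 4 without iPSC replicate 2, and DESeq2 called 0. With promoters of 1000 bp on either side it was 41, with 9.57% of all promoters higher, and for pre-iPSCs against MEFs 6, with 2.97%. Scaling to all unique reads put the median of all promoters at -0.42 and left 2 members called, and for pre-iPSCs against MEFs it put that median at -0.50 and the median of tested members at -0.06, where TMM gave 0.43. In simulated counts for iPSCs against pre-iPSCs edgeR found 38 of 200 promoters changed 2-fold and 200 of 200 changed 4-fold. The changed promoters were drawn from those above the median count of the tested set. The simulation therefore does not show what would be found at promoters with fewer reads, as at many members.

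The largest change was that of Hpn, a membrane serine protease with a CpG-poor promoter, shown above. H3K4me3 there was 8.37 and 0 in MEFs, then 29.5 and 13.6 in pre-iPSCs and finally 58.1 and 52.6 in iPSCs, a log2 change of 3.49 ± 0.73 between MEFs and iPSCs (SE, edgeR adjusted p = 0.000657). Eras had 2.79 and 13.4, then 22.1 and 36.3, then 34.2 and 57.0 (2.47 ± 0.69, edgeR adjusted p = 0.0141). Pnldc1 had 11.2 and 3.36 in MEFs, then 14.8 and 13.6 in pre-iPSCs and finally 44.4 and 43.9 in iPSCs (2.47 ± 0.69, edgeR adjusted p = 0.0149). In this gene the pre-iPSC libraries lay just above those of MEFs and well below those of iPSCs. Camk2b, a calmodulin-dependent kinase with a CpG-rich promoter, had 19.5 and 30.2, then 59.0 and 77.2, then 106 and 101 (2.06 ± 0.44, edgeR adjusted p = 0.000835), and its pre-iPSC libraries lay between the others. Apoc1 had 16.7 and 13.4, then 36.9 and 36.3, then 58.1 and 70.2 (2.03 ± 0.56, edgeR adjusted p = 0.0126).

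Stra8 had 16.7 and 16.8 in MEFs, then 33.2 and 13.6 in pre-iPSCs and finally 64.9 and 65.8 in iPSCs (1.93 ± 0.55, edgeR adjusted p = 0.0157). The other 12 changed by log2 1.5 to 1.91 and were Lin28a, Tcl1, Gtsf1l, Sohlh2, Slc39a4, Vrtn, Prss50, Gm7325, Acp5, Aire, Galnt6 and Nphs1. By class, 2 of the 18 promoters were high in CpG, 8 intermediate and 8 low. At 13 of the 18 both pre-iPSC libraries lay above both MEF libraries (24.4% of all promoters), and at 14 both iPSC libraries lay above both pre-iPSC libraries (17.5%). The 18 were taken for more H3K4me3 in iPSCs than in MEFs, so nothing is read from these counts. Kirrel2, the member higher in pre-iPSCs, shares a divergent region with Nphs1, whose TSS is 2543 bp away. Both encode immunoglobulin-type proteins of the kidney filter. Kirrel2 had 22.3 and 43.7 in MEFs, then 88.5 and 95.4 in pre-iPSCs and finally 54.7 and 105 in iPSCs, and Nphs1 27.9 and 20.1, 25.8 and 72.7, and 64.9 and 74.6.

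**Figure D3:**
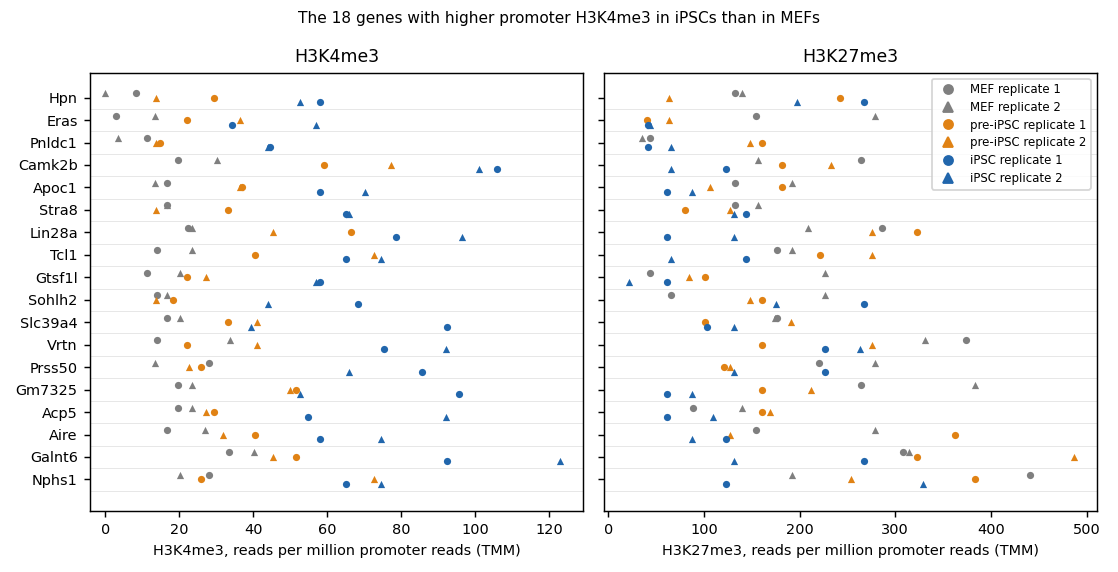
H3K4me3 (left) and H3K27me3 (right) at the promoters of the 18 members with higher H3K4me3 in iPSCs than in MEFs, in TMM-scaled CPM on the x axis, with genes on the y axis in order of the change. Circles are replicate 1, triangles replicate 2, and colours the cell types. At Hpn the MEF points are at 8.37 and 0 and the iPSC points at 58.1 and 52.6. At 10 of the 18 genes both iPSC points of H3K27me3 lie below both MEF points, near the share of all members with reads (54.3%, against 15.6% of all promoters).

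Many members stayed below the threshold of presence for H3K4me3 in iPSCs. Taking 1 RPKM as the threshold of presence, on the mean of the 2 libraries, H3K4me3 was present at 33 members in MEFs, then 22 in pre-iPSCs and finally 50 in iPSCs. These are 24.4%, 16.3% and 37.0% of the members, against 53.7%, 38.7% and 42.8% of all promoters, and the share of all promoters too was lower in pre-iPSCs than in MEFs. The order of MEFs and pre-iPSCs turned with the setting. At 0.5 RPKM 45.9% of members passed in MEFs and 53.3% in pre-iPSCs, with 69.6% in iPSCs, and when scaled to reads in calls 29.6%, 31.1% and 51.9% passed 1 RPKM. At 2 RPKM 2.96% of members passed in MEFs and 0% in pre-iPSCs and in iPSCs, so the order of MEFs and iPSCs turned there. In 29 members, or 21.5% against 11.3%, neither mark passed in pre-iPSCs and H3K4me3 alone did in iPSCs, and 76, or 56.3% against 38.4%, had neither mark above the threshold in any of the cells. The counts by role were not tested against each other, and some roles hold promoters with almost no reads. H3K4me3 was above the threshold in iPSCs at 5 of 5 transport genes, 10 of 14 enzyme genes, 9 of 13 surface genes and 6 of 9 neuronal genes. In MEFs the counts of these roles were 3, 5, 4 and 3. Growth factor and signalling genes had 7 of 13 above it in MEFs and 6 in iPSCs. The regulators had 3 of 15 and then 7, and the ungrouped genes 5 of 19 and then 3. In iPSCs it was above at 3 of 15 meiosis genes and 1 of 6 testis forms. It was above at 0 of 8 piRNA, 0 of 7 preimplantation, 0 of 6 X-linked and 0 of 5 KRAB genes. Among the most expressed members, Mdk, Chchd10, Upp1, Bex1, Rbpms2 and Pla2g1b did not have H3K4me3 in iPSCs above that of the other cells. Their iPSC libraries did not both lie above both MEF or both pre-iPSC libraries. At Stra8, Lin28a and Gm7325 both iPSC libraries lay above both MEF and both pre-iPSC libraries. Mdk had H3K4me3 of 27.9 and 13.4 in MEFs, then 70.0 and 54.5 in pre-iPSCs and finally 27.3 and 57.0 in iPSCs, and Pla2g1b 19.5 and 3.36, 29.5 and 40.9, and 17.1 and 35.1, and the iPSC values of both overlapped those of the other cells.

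The 6 members with the lowest H3K4me3 in iPSCs were Gm5662, Gm10324, Gm13242, Xlr5a, Zscan4c and Zscan4f, at 0 reads in both iPSC libraries. They also had at most 4 H3 reads in any library, so the mark could not be measured there. Zscan4c, at 18.6 and 5.99 FPKM, is an example.

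H3K27me3 at member promoters was lower in iPSCs than in the other cells, and MEFs and pre-iPSCs overlapped. Its median there was 132 and 157 in MEFs, then 141 and 127 in pre-iPSCs and finally 82.3 and 87.6 in iPSCs, where all promoters had 66.1 and 52.3, 80.6 and 63.6, and 82.3 and 65.7. Members thus had more of this mark than the typical promoter in MEFs and came near it in iPSCs, at low levels. This order was not particular to H3K27me3. Median H3 of members was 55.5 and 65.2 in MEFs, where all promoters had 44.9 and 43.5. In iPSCs it was 48.1 and 48.3, where all promoters had 44.8 and 43.5. Median H3K9me3, from 1 library each, was 0.328 RPKM against 0.197 in MEFs and 0.265 for both in iPSCs. The H3K27me3 medians of members were 0.363 and 0.476 RPKM in MEFs and 0.230 and 0.239 in iPSCs, below the threshold of 1 RPKM. On the mean of the libraries, 5 members in MEFs passed this threshold with H3K27me3 alone (3.70% against 1.29% of all promoters). With both marks 2 did (1.48% against 0.531%). In pre-iPSCs these were 1 and 1 (0.873% and 0.352% of all promoters), and in iPSCs 0 and 0 (0.501% and 0.427%). For H3K27me3 both iPSC libraries lay below both MEF libraries at 69 of 127 members with reads, or 54.3%, against 15.6% of all promoters. They lay below both pre-iPSC libraries at 50 (39.4% against 12.5%). Pre-iPSCs lay below MEFs at 36 (28.3% against 16.7%) and above at 22 (17.3% against 21.5%). H3, which stands for the nucleosomes themselves, was lower in both iPSC than in both MEF libraries at 47 of 133 members, or 35.3% against 19.7%, and higher at 15, or 11.3% against 20.7%. The direction for H3 rests on the scaling, since the median log2 difference of tested members between iPSCs and MEFs was -0.31 by TMM and 0.45 with unique reads as library size, which put the median of all promoters at 0.80. Of the 69 members with lower H3K27me3, 27 also had lower H3 and 42 did not (both were lower at 4.64% of all promoters), and the part of H3 in the lower H3K27me3 was not tested.

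By edgeR 4 of the 135 members had lower H3K27me3 in iPSCs than in MEFs and 0 had higher, against 1.35% lower and 2.79% higher among 4439 promoters with enough reads, which included 52 members. Without the filter it was 11 of 127, with 0.583% of all promoters lower and a median log2 change of -0.83 over the members and 0 over all promoters. Ooep fell by 2.56 on the log2 scale (SE 0.66, edgeR adjusted p = 0.0110), with 418 and 244 in MEFs, then 181 and 63.5 in pre-iPSCs and finally 103 and 0 in iPSCs. Gldc fell by 2.13 (SE 0.50, edgeR adjusted p = 0.00646), with 374 and 471, then 282 and 127, then 61.7 and 131. Gm7325 had 264 and 384, then 161 and 212, then 61.7 and 87.6, and Slc27a2, a fatty acid transporter, 374 and 331, then 242 and 339, then 61.7 and 131. In these genes no iPSC value reached the MEF range, and H3K4me3 rose by edgeR at Gm7325 alone. The count was 1 without MEF replicate 2 or without iPSC replicate 1, 2 without MEF replicate 1 or without iPSC replicate 2, 0 by DESeq2 and 32 with 1000 bp on either side, where 3.87% of all promoters were lower. For iPSCs against pre-iPSCs and pre-iPSCs against MEFs edgeR called 0 members, where 0% and 1.06% of promoters were lower and 0.0901% and 1.71% higher (386 and 728 at an unadjusted p below 0.05, in either direction), and DESeq2 called 0. With 1000 bp on either side 2 and 8 members were lower, against 0.134% and 3.14% of all promoters.

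**Figure D4:**
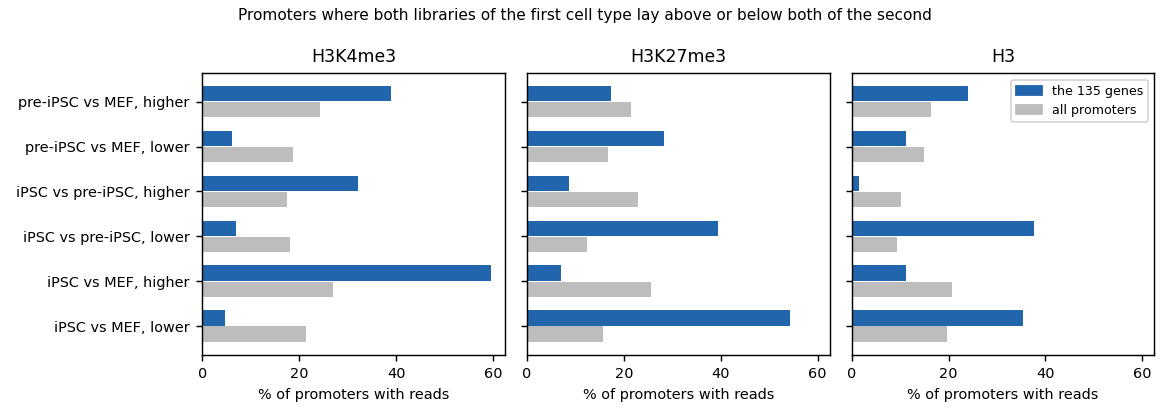
Percent of promoters with reads at which both libraries of the first named cell type lay above (higher) or below (lower) both of the second, for members (blue) and all promoters (grey). Members exceed all promoters for higher H3K4me3 and lower H3K27me3 in iPSCs against MEFs, at 59.5% and 54.3%, and for lower H3 in iPSCs against pre-iPSCs at 37.6%.

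H3K4me3 was higher and H3K27me3 lower at the same promoters, both without overlap between iPSC and MEF libraries, at 41 of 127 members, or 32.3%, against 5.73% of all promoters. The roles differed in their counts. Both held at 11 of 15 pluripotency and transcription regulators, among them Lin28a, Eras, Foxh1, Tcl1, Aire and Sox3. They held at 7 of 14 enzyme genes, 6 of 13 surface genes and 5 of 9 neuronal genes. They held at 3 of 13 growth factor and signalling genes, 2 of 5 transport genes, 3 of 6 X-linked reproductive genes, 1 of 6 testis forms, 1 of 7 preimplantation genes, 1 of 15 meiosis genes, 0 of 8 piRNA genes and 0 of 5 KRAB genes. Taken singly, H3K4me3 was higher at 59.5% of members with reads and 27.1% of all promoters, and H3K27me3 lower at 54.3% and 15.6%. In the piRNA group 7 of 8 had higher H3K4me3 and 1 of 8 lower H3K27me3, the latter near the share of all promoters. Over the germ cell, testis, preimplantation, X-linked and KRAB groups, both held at 6 of 47 members (42 with reads of both marks). In these groups H3K4me3 was higher at 28 and H3K27me3 lower at 14, against 27.1% and 15.6% of all promoters. Over the other roles both held at 34 of 69 (all with reads of both marks). There H3K4me3 was higher at 44 and H3K27me3 lower at 51, against the same shares of all promoters. Roles were assigned with results known, and the difference between them was not tested. Lin28a had H3K4me3 of 22.3 and 23.5 in MEFs, then 66.4 and 45.4 in pre-iPSCs and finally 78.6 and 96.5 in iPSCs, with H3K27me3 of 286 and 209, then 322 and 275, then 61.7 and 131. In pre-iPSCs, at 1.24 and 0 FPKM, its H3K4me3 thus lay above the MEF libraries and its H3K27me3 above the iPSC libraries.

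**Figure D5:**
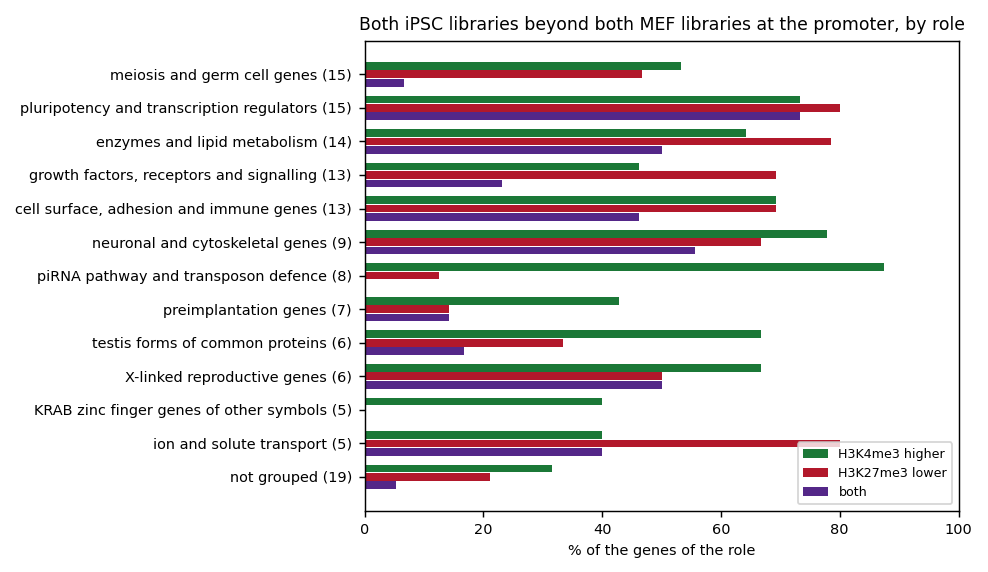
Percent of the members of each role, with the number of genes in brackets, at which both iPSC libraries lay beyond both MEF libraries. Bars show higher H3K4me3, lower H3K27me3, and both at the same promoter. Both held at 11 of 15 regulators and 0 of 8 piRNA genes, against 5.73% of all promoters.

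Of the 10 members past the threshold for higher expression in pre-iPSCs than in MEFs, 2 had more H3K4me3 in both pre-iPSC than in both MEF libraries, where 38.9% of members with reads and 24.4% of all promoters did. Cbx7, for example, had 41.8 and 73.9 in MEFs, then 66.4 and 54.5 in pre-iPSCs and finally 68.3 and 70.2 in iPSCs, which overlap, while its H3K27me3 was 66.1 and 122, 101 and 63.5, and 41.2 and 21.9.

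Nucleosome occupancy was lower in iPSCs than in pre-iPSCs at many members. H3 was lower in both iPSC than in both pre-iPSC libraries at 50 of 133 members, or 37.6%, against 9.28% of all promoters, and higher at 2, or 1.5% against 10.2%. Against pre-iPSC replicate 2 alone, leaving out the replicate that stands apart, both iPSC libraries were lower at 58.6% of members and 34.1% of all promoters, and against replicate 1 alone at 64.7% and 29.4%. Median H3 of members was 55.5 and 65.2 in MEFs, then 69.4 and 61.7 in pre-iPSCs and finally 48.1 and 48.3 in iPSCs. By edgeR 0 members were called for H3 in any of the comparisons (0% of 18901 promoters, with 322, 121 and 393 at an unadjusted p below 0.05 for pre-iPSCs against MEFs, iPSCs against pre-iPSCs and iPSCs against MEFs), and DESeq2 called 0. Without pre-iPSC replicate 2, so that the library that stands apart is alone, edgeR called 4 members higher and 3 lower in pre-iPSCs than in MEFs, where 231 and 2920 of 19254 promoters were, and 1 higher and 3 lower in iPSCs than in pre-iPSCs, where 1817 and 11 were. In simulated H3 counts edgeR found 4 of 200 promoters changed 4-fold, again drawn from those above the median count, so a change of that size was not detectable. Scaling to unique reads put the median H3 difference of all promoters at 1.27, -0.36 and 0.80 in those comparisons.

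H3K9me3, a mark of heterochromatin, was measured in 1 library per cell type and carries no test. The median at member promoters was 0.328 RPKM in MEFs, then 0.312 in pre-iPSCs and finally 0.265 in iPSCs, with 0.197, 0.187 and 0.265 at all promoters. Members above 1 RPKM were 0.741%, 1.48% and 0% of the 135. The 95% Wilson intervals were 0.131% to 4.08%, 0.407% to 5.24% and 0% to 2.77%. They treat the genes as independent draws and do not cover the spread between libraries, so nothing is read from them. Of all promoters 0.342%, 0.233% and 0.496% were above 1 RPKM.

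Neighbouring members made 7 pairs, in which no TSS of another gene row of the expression tables lay between the genes. Other annotated starts were not examined. They were Aire and Icosl, Gm10324 and 2410141K09Rik, Gm13242 and Gm13247, Gm13154 and 2610305D13Rik, Zscan4c and Zscan4d, Kirrel2 and Nphs1, and Triml1 and Triml2. Kirrel2 and Nphs1 were closest, at 2543 bp between their TSSs. Aire, the autoimmune regulator, and Icosl, a ligand of T cells, lie 25788 bp apart on opposite strands and read 7.79 and 6.57 and 8.36 and 10.2 FPKM in iPSCs. Of the 135 members 1, Ina, had the TSS of another gene within 500 bp, so its promoter values may belong to both genes.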

How the data were processed

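MNase ChIP-seq reads were mapped to mm9 by the authors, who used Bowtie and kept reads that mapped once. Nucleosomes were then called by GeneTrack, and the deposited files give each call's read count and, as a signal value from the authors, its fuzziness (the spread of its read positions, not used for any result). Reads outside calls were not used here. For RNA the authors ran TopHat and Cuffdiff on RefSeq genes and deposited FPKM in 1 table per replicate, so each table was normalized separately and RNA depth is unknown. Per the labels, the versions were Bowtie 1.0.1, TopHat2 2.0.4 and Cufflinks 2.0.2.

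The members, roles, lists and motifs were chosen with earlier results of these data known. TSSs were taken from the expression tables, and 118 of 135 lie within 50 bp of a GENCODE M1 transcript start and 7 over 500 bp from any. A call was assigned to a promoter by its centre. Promoter counts went into edgeR 4.0.16 (quasi-likelihood, TMM, filterByExpr), with all 6 libraries of a mark in 1 fit and Benjamini-Hochberg adjustment over all promoters, and into DESeq2 1.42.0. RPKM used the unique reads of each library. FPKM values were compared by limma 3.58.1 (trend) as log2(FPKM + 1), a scale that understates changes of low genes, where the mean reached 0.5 FPKM, with a term for the table. Any gene at 0 FPKM is only listed at 0. Libraries whose titles mark a repeat are called replicate 2. The study calls its replicates biological, but the sources used here do not say which cultures or clones they came from. Fits that leave out 1 of a pair assume that the other varies like the remaining libraries.

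Genes were named by rule: the 12 with the largest ratio, the 12 with the highest level, those at the threshold, the largest promoter changes, the lowest H3K4me3, list members, up to 4 per role, neighbours, near-identical families and marker genes. Acp5, Amt, Clgn, Dusp9, Galnt6, Mef2b, Nefh, Psma8, Sfrp2, Slc39a4 and Vrtn, and markers other than Pou5f1 and Sox2, were added after their values were seen. CpG classes and motifs were read from the mm9 genome. Tests were checked on simulated data. Alternatives covered scaling, filters, windows, thresholds, tools, blocks and left-out libraries. R 4.3.3 and Python 3.11.15 were used.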

Additional observations from a re-analysis of the deposited data

How the results depend on the processing

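The number of genes was 212 at 3-fold, 42 at 8-fold, 215 and 76 with pseudocounts of 0.5 and 2 FPKM, and 218 to 240 from the table of 1 replicate alone. H3K4me3 members called for iPSCs against MEFs were 0 by DESeq2, 2 with unique reads as library size, 41 with 1000 bp on either side, 7 with nucleosomes of at least 2 reads and 1 to 16 with a library left out. For pre-iPSCs against MEFs they were 0 by DESeq2, with unique reads or with no filter, 6 with 1000 bp and 0 to 1 with a library left out. H3K27me3 members called for iPSCs against MEFs were 0 by DESeq2, 11 with no filter, 32 with 1000 bp, 1 with nucleosomes of at least 2 reads and 1 to 5 with a library left out, and with 1000 bp they were 8 for pre-iPSCs against MEFs and 2 for iPSCs against pre-iPSCs. For H3 they ran from 0 to 7 and from 0 to 4 in the comparisons with pre-iPSCs when a library was left out. No setting called a member lower in H3K4me3 or higher in H3K27me3.

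Expression calls for pre-iPSCs against MEFs were 24 with a pseudocount of 0.1 FPKM, 3 with no filter, 6 after quantile normalization and 2 to 13 with a library left out. Of the lists, epithelial junction genes had 8 calls with no filter and 1 to 22 with a library left out, preimplantation genes 4 at a mean of at least 1 FPKM and 4 to 9, and fibroblast markers 0 without the replicate block and 0 to 9. With a library left out the piRNA list had 6 to 14, the meiosis list 7 to 24, the pluripotency list 9 to 30, the surface antigens 0 to 12, trophoblast and endoderm markers 0 to 1 and the X-linked and cancer-testis list 3 to 14.

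Members above the H3K4me3 threshold were 45.9%, 53.3% and 69.6% at 0.5 RPKM in MEFs, pre-iPSCs and iPSCs, 2.96%, 0% and 0% at 2 RPKM, where MEFs lay above iPSCs, and 31.1% and 51.9% in pre-iPSCs and iPSCs when scaled to reads in calls, so that at 0.5 RPKM or with this scaling pre-iPSCs lay above MEFs. From 1 replicate they were 18.5% to 28.9%, 14.8% to 23% and 29.6% to 40.0%. For H3K27me3, whose counts at 1 RPKM are given with that mark above, they were 40.0%, 32.6% and 17.0% at 0.5 RPKM and 0% in MEFs at 2 RPKM. They were 16.3%, 9.63% and 1.48% when scaled to reads in calls, and 6.67% to 11.1%, 1.48% to 4.44% and 0% to 1.48% from 1 replicate. High-CpG members were 19.3% with the 300-bp region. Against 1 pre-iPSC library, an alternative chosen after seeing the data, H3 was lower at 78 to 86 members.

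The titles mark only a repeat of each library, and replicate numbers were not taken to pair samples. With a replicate block 18, 1 and 0 members were called for H3K4me3 in iPSCs against MEFs, pre-iPSCs against MEFs and iPSCs against pre-iPSCs, and 4, 0 and 0 for H3K27me3, as without it. Deviations of same-numbered libraries correlated at 0.735 for H3 between pre-iPSCs and iPSCs and at -0.05 to 0.12 for the marks. For expression the table is a block in the test, and with no replicate block 10 members were called. With 2 libraries per cell type and this depth, 2-fold changes of single promoters were mostly not detectable.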
